A study of Arabidopsis thaliana with 12 samples.

Results

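Inflorescence small RNA of 2 single mutants of Arabidopsis thaliana was compared directly, ntp4-1 against urt1-1, in 3 libraries of each. Both mutants are in the Col-0 ecotype, the plants received no treatment, and growth was at 22 °C in long days (16 h light, 8 h dark). Neither group of the comparison is wild type. NTP4 stands in the title of the series as a protein that acts on the duplex of a miRNA and its partner strand, and URT1 (AT2G45620) is a uridylyltransferase. The labels call the 3 libraries of a group biological replicates and do not say how many plants each holds. The series also has 3 heso1-1 and 3 wild-type Col-0 libraries, whose levels are given in places as a description only. The values were RPM, the reads of a bin scaled to a fixed library total by the authors, in bins of 100 bp. Every bin with a mean of at least 1 RPM over the 6 libraries was taken, which gave 34861 of the 152484 listed bins (22.86%). Of these, 5157 (of 22134 listed) lay in annotated genes without a transposable element (TE), and 251 (of 369 listed) named a mature miRNA. The lowest mean inside the limit was 1.00003 RPM and the highest outside it 0.999968 RPM. A bin that is near 0 in one mutant could enter only through the other.

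Plant miRNAs are cut from a hairpin as a duplex of 2 strands, the 5p and the 3p, and the methyltransferase HEN1 adds a methyl group to the 3' end of each strand. Strands that lack it are open to uridylyltransferases such as HESO1 and URT1, which add U to the 3' end and so mark a small RNA for decay. URT1 also adds U to mRNA whose poly(A) tail has been shortened, and in plants with impaired mRNA decay mRNAs can become templates for small interfering RNA (siRNA). Most other small RNA of an inflorescence is siRNA of transposons and repeats, which guides DNA methylation.

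The sequences on which the results turn most are set out first. The mature miRNAs below are written with bases 2 to 8, the seed, in capitals. miR165 and miR166 act on mRNAs of class III HD-ZIP transcription factors, miR319 on those of TCP transcription factors, miR393 on those of auxin receptors, and miR398 is a family of copper homeostasis whose 5p strand is shown. miR5653 is shown because it was listed at 0 in every urt1-1 library. The sequences were read at the positions of the RefSeq annotation of TAIR10.1.
miR165a-3p: uCGGACCAggcuucauccccc
miR166a-3p: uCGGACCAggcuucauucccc
miR319a: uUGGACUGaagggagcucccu
miR319c: uUGGACUGaagggagcuccuu
miR393a-5p: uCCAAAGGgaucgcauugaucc
miR398b-5p: aGGGUUGAuaugagaacacac
miR5653: uGGGUUGAguugaguugaguuggc
miR165a-3p and miR166a-3p share the seed CGGACCA, both miR319 members share UGGACUG, and miR398b-5p and miR5653 have GGGUUGA in common although they are 21 and 24 bases long.

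Of the called bins, 4 are printed whole, on the plus strand of TAIR10.1. The first had the largest difference among bins lower in ntp4-1, and the second lies in the coding sequence of GRF5. The third lies in an intron of AT3G49230, and the fourth was well filled in ntp4-1 and almost empty in urt1-1.
chr1:6594001-6594100: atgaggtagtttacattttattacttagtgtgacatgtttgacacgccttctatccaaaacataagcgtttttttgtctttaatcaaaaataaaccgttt
chr3:4609901-4610000: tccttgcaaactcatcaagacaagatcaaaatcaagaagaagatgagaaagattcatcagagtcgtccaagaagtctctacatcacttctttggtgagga
chr3:18254601-18254700: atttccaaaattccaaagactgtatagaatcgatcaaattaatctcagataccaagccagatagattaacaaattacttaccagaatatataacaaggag
chr2:11834901-11835000: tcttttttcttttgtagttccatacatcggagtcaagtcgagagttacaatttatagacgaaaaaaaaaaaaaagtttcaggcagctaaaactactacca
Their GC content was 30%, 39%, 30% and 32% in that order. The GC content of bins that were not called was not computed, so these values are a description.

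The 6 libraries did not group by genotype alone, which touches every result below. By the recovered reads the libraries held 7593442, 4935593 and 5470230 reads in ntp4-1 and 7753962, 3696436 and 7711599 reads in urt1-1. The listed bins took 28.7%, 48.5% and 54.3% of the reads in ntp4-1, against 51.2%, 60.7% and 43.6% in urt1-1. On log2 levels of all bins, the first ntp4-1 library correlated more with urt1-1 replicates 1 and 3 (r = 0.83 and 0.85) than with ntp4-1 replicates 2 and 3 (r = 0.63 and 0.66). Likewise urt1-1 replicate 2 correlated with ntp4-1 replicates 2 and 3 at 0.85 each, against 0.77 and 0.74 with the other urt1-1 libraries. Over all 12 libraries this made a set of 5 (replicate 1 of each of the 4 genotypes and urt1-1 replicate 3) and a set of 7. No label names these sets, and they are called library sets here. Their part in the results was not tested apart from the fits with library set as a term, which were chosen after the data were seen and use sets defined on the same values. In bulk tissue, fewer cells of a type and less RNA per cell cannot be told apart.

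The direct comparison asked where small RNA differs between loss of NTP4 and loss of URT1. limma on log2(RPM + 0.5) called 25 bins of 34861 at a Benjamini-Hochberg adjusted p under 0.05 (0.0717% of bins), 16 lower (0.0459%) and 9 higher (0.0258%) in ntp4-1. These calls were all-or-nothing differences of small loci: levels lay between 4.06 and 83.6 RPM in one mutant and between 0 and 2.84 RPM in the other. By class, 8 called bins lay in promoters, 6 had no annotation, 4 lay in promoters with a TE, 3 in gene bodies, 2 in TEs alone, and 1 each in a gene with a TE and in a gene with a promoter and a TE. At an unadjusted p under 0.05 there were 1375 bins (3.94%), 132 higher (0.379%) and 1243 lower (3.57%). No overlap between the groups was found in 3876 bins with ntp4-1 lower (11.1%) and in 256 bins with ntp4-1 higher (0.734%). The median difference of all bins was -0.37 on the deposited scale and -0.15 after TMM scaling. The size of the general offset toward lower ntp4-1 thus depends on the scaling. In edgeR, a fit of counts that also used TMM factors, the median was 0.03, so its direction depends on the kind of fit too. The offset also moved with 1 library: without ntp4-1 replicate 1 the median was 0.09. In that fit 1403 bins were higher and 2153 lower at an unadjusted p under 0.05. Within the library set that holds ntp4-1 replicates 2 and 3 and urt1-1 replicate 2, the median was -0.40. With library set as a term it was -0.69, and both of these fits were chosen after the data were seen. The split of calls moved with the scaling, to 23 higher and 27 lower of 50 under TMM.

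The calls rest on few libraries. Without ntp4-1 replicate 2 or 3, or without urt1-1 replicate 1 or 3, no bin was called. Without urt1-1 replicate 2 there was 1, which was not among the 25. Without ntp4-1 replicate 1 there were 73, among them all 25. On the recovered reads no bin passed in edgeR (0 calls; 1675 had an unadjusted p under 0.05), while DESeq2 had 204 calls, again including the 25.

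**Figure D1:**
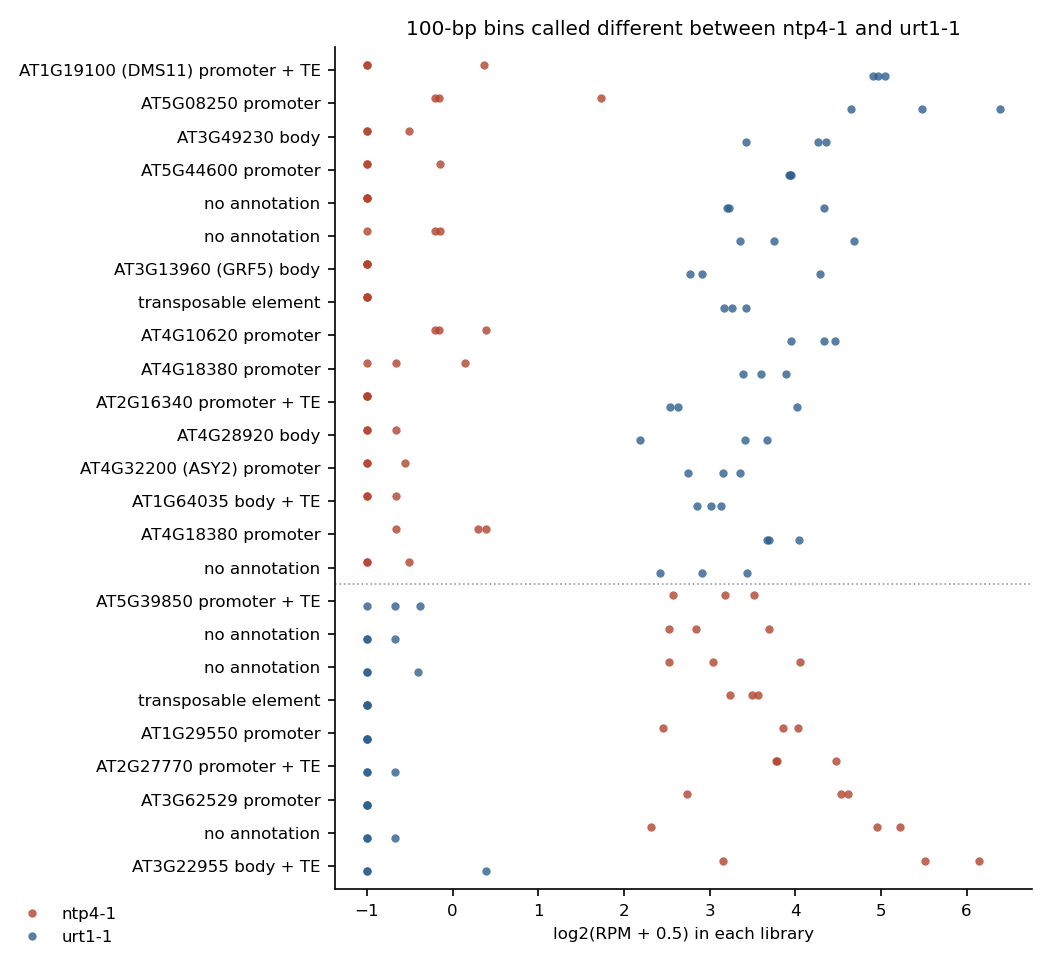
Each row is a called 100-bp bin, ordered by its difference, and each point a library, on the log2(RPM + 0.5) scale, with ntp4-1 points in the upper and urt1-1 points in the lower part of a row. In the 16 rows above the dotted line all ntp4-1 points lie left of all urt1-1 points, and in the 9 rows under it the order is turned round. A point at -1 is a library listed at 0.

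**Figure D2:**
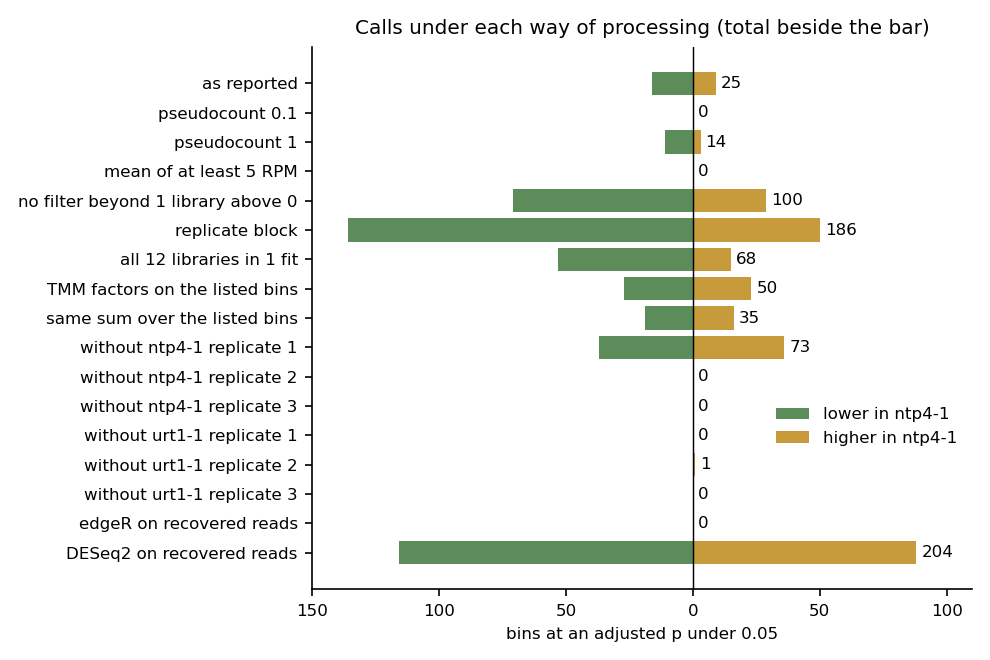
Number of bins called lower (left) and higher (right) in ntp4-1 under the reported fit and other settings, with the total beside each bar. Over the settings shown the count runs from 0 to 204 around the reported 25, and 5 of the 6 fits that leave out a library give 0 or 1.

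Among the bins lower in ntp4-1 than in urt1-1, the bin at chr1:6594001-6594100 differed most. It overlaps a TE 783 bases before the start of AT1G19100 (DMS11, also known as MORC6), a gene of the MORC ATPase family that takes part in transposon silencing. Its level was 0.790, 0 and 0 RPM in ntp4-1 and 30.7, 32.5 and 29.4 RPM in urt1-1. No library of one group came near the other, and the urt1-1 libraries lay close together. The difference was -5.51 (SE 0.59, limma adjusted p = 0.0213). The heso1-1 libraries had 25.3, 28.9 and 32.6 RPM and the Col-0 libraries 38.1, 37.2 and 43.6 RPM, so here ntp4-1 alone stood near 0. The listed neighbour 100 bases on held at most 1.08 RPM in any of the 6 libraries, so the signal was confined to the 1 bin among those listed within 300 bases.

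The same shape was seen 293 bases before AT5G44600, at chr5:17989401-17989500. Its level was 0, 0.405 and 0 RPM in ntp4-1 and 15.0, 14.9 and 14.7 RPM in urt1-1. The 3 urt1-1 libraries were almost equal although they fall in both library sets. The difference was -4.65 (SE 0.54, limma adjusted p = 0.0213), and Col-0 had 10.7 to 13.8 RPM. A bin of a TE on its own at chr1:10363201-10363300 was listed at 0 in all ntp4-1 libraries, against 8.51, 10.3 and 9.08 RPM in urt1-1. With 3 reads over the ntp4-1 group as the floor, it was at least 55.7-fold lower in ntp4-1. Fitted differences of such bins depend on the pseudocount and are no bound.

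The bin at chr5:2656101-2656200, between AT5G08250 and scpl35 (AT5G08260), had the highest urt1-1 level of the bins called lower in ntp4-1. Its level was 0.395, 2.84 and 0.366 RPM in ntp4-1 and 44.1, 83.6 and 24.6 RPM in urt1-1. The groups were far apart, although urt1-1 varied more here than at the bins above. The difference was -5.05 (SE 0.72, limma adjusted p = 0.0437). Among bins with no annotation, chr5:13907701-13907800 had 0, 0.405 and 0.366 RPM in ntp4-1 against 25.1, 9.74 and 12.97 RPM in urt1-1. Another, chr3:16755101-16755200, was at 0 in all ntp4-1 libraries against 8.90, 19.7 and 8.69 RPM in urt1-1, at least 74.7-fold lower in ntp4-1. Wild type separates these 2: Col-0 had 12.9 to 15.6 RPM at the first and at most 0.101 RPM at the second.

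A stretch of 2 called bins 807 bases before AT4G18380 was lower in ntp4-1 as a whole. The nearer bin, chr4:10156901-10157000, had 0.132, 0.608 and 0 RPM in ntp4-1 and 14.3, 10.01 and 11.7 RPM in urt1-1, and its neighbour at chr4:10156801-10156900 had 0.132, 0.810 and 0.731 RPM against 12.3, 16.0 and 12.4 RPM. The differences were -4.13 (SE 0.56) and -3.79 (SE 0.56), with limma adjusted p of 0.0327 and 0.0437. Before AT4G10620, the bin at chr4:6563901-6564000 had 0.395, 0.810 and 0.366 RPM in ntp4-1 and 19.7, 21.6 and 14.9 RPM in urt1-1. Col-0 had 0.686 to 1.44 RPM there and heso1-1 10.6 to 20.6 RPM, so the wild type stood with ntp4-1 and not with urt1-1. The promoter bin of ASY2 (AT4G32200, a gene of the meiotic chromosome axis) was also low in wild type: 0, 0 and 0.183 RPM in ntp4-1 and 8.38, 9.74 and 6.22 RPM in urt1-1, against 0.302 RPM at most in Col-0.

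The bins called lower in ntp4-1 therefore fell into different positions relative to wild type. In 12 of the 16, all Col-0 libraries lay above all ntp4-1 libraries, and in 8 of the 16 all Col-0 libraries lay below all urt1-1 libraries. Over all tested bins the same counts were 9146 and 534 of 34861. Since the 16 were chosen for a low ntp4-1 and a high urt1-1, these counts are a description.

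In gene bodies without a TE, 3 bins of 5157 were called (0.0582% of them, against 0.0717% of all bins), all lower in ntp4-1. They lay in GRF5, AT3G49230 and AT4G28920. Of the 5157, 4510 lie on chromosomes 1 to 5 and the rest in organelle genomes. The median difference was -0.30 over all of them and -0.40 over the nuclear ones. At an unadjusted p under 0.05 there were 36 higher and 249 lower bins of the 5157, against 0.379% higher and 3.57% lower of all bins.

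GRF5 (AT3G13960) encodes a growth-regulating factor, a transcription factor that promotes cell proliferation in leaves. Its called bin, chr3:4609901-4610000, lies wholly in coding sequence. It was listed at 0 in every ntp4-1 library and at 19.1, 7.03 and 6.35 RPM in urt1-1, at least 64.9-fold lower in ntp4-1 with 3 reads over the group as the floor. The groups did not overlap, and the first urt1-1 library was far above the other urt1-1 libraries. The fitted difference was -4.33 (SE 0.59, limma adjusted p = 0.0327). All 9 tested bins of GRF5 had a lower mean in ntp4-1. They reached the minimum mean RPM only through urt1-1, so that direction was fixed by the filter. The 15 listed bins summed to 0.263, 0.608 and 1.28 RPM in ntp4-1, against 69.3, 36.5 and 21.9 RPM in urt1-1. The other genotypes were split: Col-0 had 0.719 to 1.21 RPM over the gene, and heso1-1 had 18.8, 1.34 and 35.5 RPM.

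EBF1 (AT2G25490), an F-box protein that directs degradation of the ethylene-response factor EIN3, had the next smallest p. Over its 15 listed bins small RNA summed to 1.32, 1.01 and 1.097 RPM in ntp4-1 and to 40.8, 40.04 and 26.6 RPM in urt1-1 (1.14 ± 0.157 and 35.8 ± 7.98 RPM, SD, n = 3 each). The ntp4-1 libraries stood at the level of Col-0, 0.809 to 1.24 RPM, and heso1-1 was uneven at 8.91, 2.23 and 34.0 RPM. The bin of smallest p, chr2:10847401-10847500 in noncoding exon sequence near the end of the gene, was at 0, 0 and 0.183 RPM in ntp4-1 and 13.3, 5.95 and 4.93 RPM in urt1-1. It missed the threshold narrowly (limma difference -3.82, SE 0.58, adjusted p = 0.051). All 6 tested bins of the gene had a lower mean in ntp4-1, but they reached the minimum mean RPM only through urt1-1.

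AT3G49230 carried differences in both directions. Its called bin, chr3:18254601-18254700, overlaps no annotated exon. It had 0, 0.203 and 0 RPM in ntp4-1 and 19.99, 18.7 and 10.2 RPM in urt1-1, a difference of -4.85 (SE 0.55, limma adjusted p = 0.0213), while Col-0 had 17.7 to 26.3 RPM. Another bin 500 bases on, chr3:18255101-18255200, in noncoding exon sequence, had 11.3, 18.0 and 24.3 RPM in ntp4-1 and 1.42, 1.89 and 1.17 RPM in urt1-1. The groups did not overlap there either, but that bin did not pass the test (difference 3.16, SE 0.57, limma adjusted p = 0.116). Summed over the gene the mutants were alike in level, at 22.1 ± 9.22 RPM in ntp4-1 and 25.1 ± 7.97 RPM in urt1-1 (SD, n = 3 each). A sum over the gene thus hides the differences of single bins, and whether these bins are linked was not tested. AT4G28920, the third called gene, had 0.132, 0 and 0 RPM in ntp4-1 and 12.3, 4.06 and 10.1 RPM in urt1-1 in its called bin, with 42 coding bases in it (difference -3.98, SE 0.59, limma adjusted p = 0.0437). Over 5 listed bins it summed to 0.199 ± 0.198 RPM in ntp4-1 and 14.7 ± 5.13 RPM in urt1-1 (SD, n = 3 each).

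HAK5 (AT4G13420), a high-affinity potassium transporter, was named for a bin of its body that overlaps TEs. The 19 listed bins of the gene summed to 4.21, 17.4 and 16.3 RPM in ntp4-1 and to 77.0, 170.2 and 58.2 RPM in urt1-1. The groups were well apart, and here wild type was on the side of urt1-1, with 53.2, 110.7 and 93.2 RPM in Col-0 and 86.8 to 181.7 RPM in heso1-1. The peak lay between positions 7800601 and 7800900 of chromosome 4, outside annotated exons. Of its bins, the one from 7800801, which was picked after its values were seen, had 0.395, 3.44 and 0.548 RPM in ntp4-1 against 27.9, 71.7 and 21.7 RPM in urt1-1, a difference of -4.53 (SE 0.74) that did not pass (limma adjusted p = 0.0812). All 11 tested bins of the gene had a lower mean in ntp4-1, but most of them reached the minimum mean RPM only through urt1-1.

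The auxin receptor genes AFB2 (AT3G26810) and AFB3 (AT1G12820) were picked after their values were seen. They encode F-box proteins that bind auxin, and miR393 guides cleavage of their mRNAs, after which siRNA forms from the fragment past the cut. The best ungapped match of miR393a-5p was found at chr3:9870237-9870258 on the plus strand in AFB2 and at chr1:4369085-4369106 on the minus strand in AFB3, wholly in coding sequence in both. Each had 2 mismatches over 22 bases, and the next best position had 9. In the sites below capitals mark bases that pair with the miRNA and small letters the mismatches, and the 22 bases are the same in both genes.
AFB2 site: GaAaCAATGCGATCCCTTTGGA
AFB3 site: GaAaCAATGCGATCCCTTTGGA
The small RNA of both genes lay at and past this site, toward the 3' end of the mRNA. In AFB2 the bin at chr3:9870301-9870400 had 0.527, 2.03 and 1.46 RPM in ntp4-1 and 14.6, 21.4 and 10.8 RPM in urt1-1. In AFB3 the bin at chr1:4368901-4369000 had 1.32, 1.22 and 3.29 RPM in ntp4-1 and 13.8, 19.5 and 10.2 RPM in urt1-1. The groups did not overlap in either gene, and Col-0 lay between the groups, at 3.60 to 9.33 RPM in AFB2 and 3.82 to 6.04 RPM in AFB3. Neither passed the test (limma differences -3.17 and -2.67, adjusted p = 0.144 and 0.277). Over all listed bins AFB2 summed to 4.65 ± 2.89 RPM in ntp4-1 and 29.3 ± 14.7 RPM in urt1-1, and AFB3 to 9.44 ± 6.45 RPM in ntp4-1 and 47.1 ± 24.4 RPM in urt1-1 (SD, n = 3 each). The miR393b 3p bin, beside them, had 15.7, 40.5 and 50.6 RPM in ntp4-1 and 65.4, 86.3 and 28.1 RPM in urt1-1, with overlap, and the miR393b 5p bin 0.132, 17.8 and 9.69 RPM in ntp4-1 and 1.55, 13.8 and 1.17 RPM in urt1-1. AFB2 and AFB3 are close relatives, and how reads that match both were placed is not given in the sources used here.

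Of other genes picked after their values were seen, the transcription factor gene TCP14 (AT3G47620) summed to 0.395, 0.405 and 0.366 RPM in ntp4-1 and 6.32, 7.57 and 4.54 RPM in urt1-1. AT5G44770 summed to 0.132, 5.88 and 0.183 RPM in ntp4-1 and 24.2, 38.7 and 18.7 RPM in urt1-1. Neither gene had overlap between the groups, and in both Col-0 was under 0.5 RPM. Where library set was a term, a fit chosen after the data were seen, 5 of the 6 tested bins of EBF1, 7 of 9 of GRF5, 7 of 11 of HAK5, 3 of 4 of AFB2 and 3 of 3 of AFB3 passed. The share was lower in AT2G08986, with 3 of 20, and in AT1G40104, with 2 of 18, whose sums were alike at 92.9 ± 71.3 RPM in ntp4-1 and 92.4 ± 36.7 RPM in urt1-1 (SD, n = 3 each). Each of these genes has a bin among the gene bins of smallest p in that same fit, so the counts are a description. The bins of a gene are not replicates. That fit called 1047 of all bins (3.00%), 59 higher (0.169%) and 988 lower (2.83%), and 260 of the gene bins without a TE (8 higher and 252 lower), and with TMM scaling added it called 211 and 76.

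The other bins of smallest p in their class missed the threshold. Over all classes 19 bins among the 5 smallest p were not called, 13 of them lower in ntp4-1, with limma adjusted p between 0.051 and 0.773. In AT2G08986 the bin at chr2:3622001-3622100 had 0, 0 and 0.548 RPM in ntp4-1 and 7.61, 5.68 and 6.61 RPM in urt1-1 (difference -3.47, SE 0.56, limma adjusted p = 0.0792). Yet the gene as a whole overlapped between the mutants, at 13.04, 64.4 and 64.0 RPM in ntp4-1 and 74.3, 122.0 and 45.5 RPM in urt1-1. The TE bin at chr1:11900801-11900900 was at 0 in every ntp4-1 library and had 11.7, 8.93 and 2.98 RPM in urt1-1 (difference -3.88, SE 0.62, limma adjusted p = 0.0775). Further gene bins of this kind lay in AT5G48675, AT1G65980, AT3G44006, AT4G03210, AT3G43304, AT2G16180, AT1G41680 and AT4G07310 with ntp4-1 lower, and in AT1G76000 and AT5G35605 with ntp4-1 higher.

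**Figure D3:**
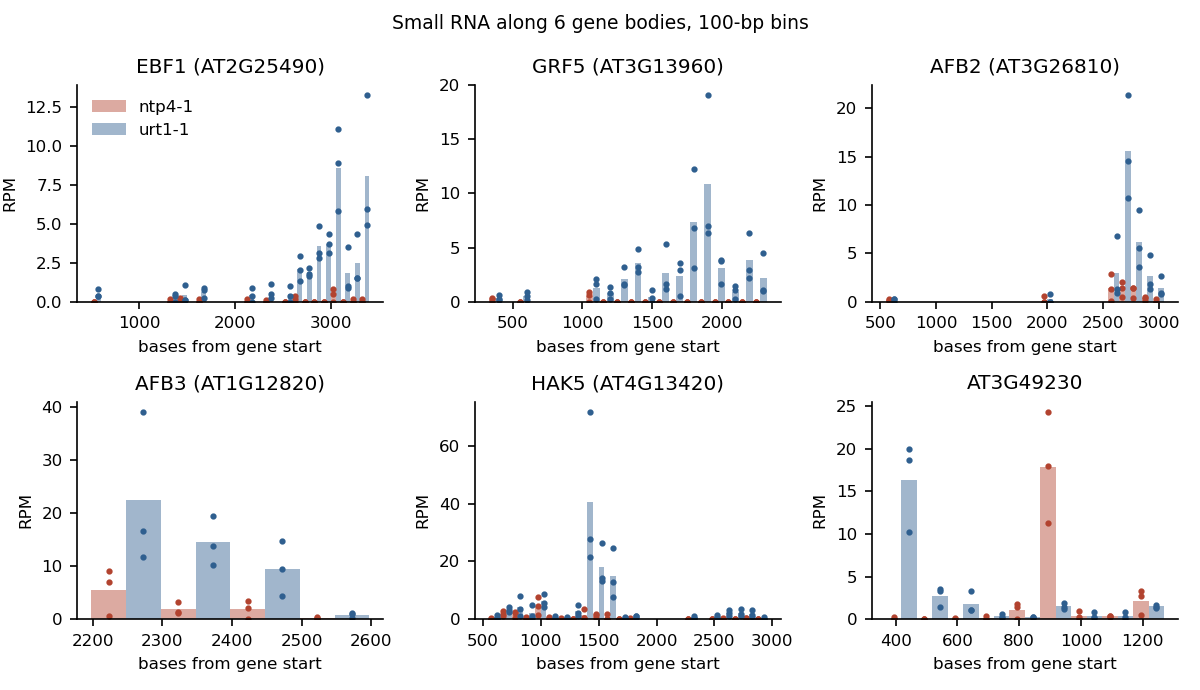
RPM of the listed 100-bp bins along 6 genes against the distance of the bin's middle from the gene start, in bases; bars are means of 3 libraries and points single libraries, ntp4-1 left of urt1-1. In EBF1, GRF5, AFB2, AFB3 and HAK5 the urt1-1 bars are the higher ones at the peaks, and in AT3G49230 the 2 mutants peak in different bins.

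Of the 9 bins that were higher in ntp4-1, most lay in promoters or had no annotation. The bin at chr2:11834901-11835000, on a TE 474 bases before AT2G27770, had 21.7, 13.2 and 13.3 RPM in ntp4-1 and 0.129, 0 and 0 RPM in urt1-1. A single read was the whole urt1-1 signal. The difference was 4.90 (SE 0.53, limma adjusted p = 0.0213), and Col-0 had 32.7 to 46.6 RPM, so urt1-1 was the genotype near 0 here, with heso1-1 at 30.0, 24.0 and 0 RPM.

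The pseudogene AT3G22955, a transposable element gene, had the largest difference among the bins higher in ntp4-1. Its bin at chr3:8138701-8138800 had 8.43, 45.2 and 70.0 RPM in ntp4-1 and 0, 0.812 and 0 RPM in urt1-1 (5.47, SE 0.81, limma adjusted p = 0.0437). The ntp4-1 libraries were spread widely, the first being lowest. Col-0 had 24.1 to 80.3 RPM there. The same order held 210 bases before AT5G39850 (8.56, 5.47 and 11.0 RPM in ntp4-1 and 0.129, 0.271 and 0 RPM in urt1-1, Col-0 23.2 to 23.8 RPM) and in the bin with no annotation at chr2:11010901-11011000 (5.27, 7.70 and 16.1 RPM in ntp4-1 and 0.258, 0 and 0 RPM in urt1-1, Col-0 14.5 to 22.6 RPM). At these 3 bins every heso1-1 library was at 0.362 RPM or less, and Col-0 and ntp4-1 were the genotypes with small RNA.

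At the other higher bins every Col-0 library lay below every ntp4-1 library. The TE bin at chr1:1739101-1739200 had 10.8, 8.91 and 11.3 RPM in ntp4-1 and was at 0 in every urt1-1 library, at least 66.1-fold higher in ntp4-1. Its neighbour on the lower side had 2.50, 6.69 and 8.59 RPM in ntp4-1 and 0 in urt1-1, so the signal spans both. Col-0 had at most 0.201 RPM and heso1-1 0 RPM, and ntp4-1 was alone in filling this TE. Before AT3G62529 the bin at chr3:23130801-23130900 had 6.19, 22.7 and 23.9 RPM in ntp4-1 and 0 in urt1-1, at least 112.5-fold higher in ntp4-1. Before AT1G29550 the bin at chr1:10330001-10330100 had 5.00, 14.0 and 15.9 RPM in ntp4-1 and 0 in urt1-1, at least 74.3-fold higher in ntp4-1. In both the first ntp4-1 library was the lowest of its group, and Col-0 was under 1 RPM. The remaining pair of bins, without annotation, had 4.48, 30.6 and 36.9 RPM in ntp4-1 against 0.130 RPM at most in urt1-1 (chr1:17247401-17247500), and 5.27, 6.69 and 12.4 RPM against 0.130 RPM at most (chr1:18956001-18956100). The fitted differences of the 9 ran between 3.77 and 5.47, with limma adjusted p between 0.0213 and 0.0495.

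Over the 9, all Col-0 libraries lay above all urt1-1 libraries in 7 and below all ntp4-1 libraries in 5, against 4406 and 277 of all 34861 tested bins. These counts too are a description.

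None of the 251 bins that name a miRNA was called by limma. At an unadjusted p under 0.05 there were 19 of them, 2 higher and 17 lower in ntp4-1, against 3.94% of all bins (0.379% higher and 3.57% lower). On the recovered reads edgeR passed 0 of them (14 had an unadjusted p under 0.05), and DESeq2 passed 1, higher. The median difference of these bins was -0.15 on the deposited scale and 0.09 after TMM scaling, and 0.22 relative to all bins, so that the direction of the median miRNA depends on the scaling. Groups did not overlap in 26 bins with ntp4-1 lower (10.4%, against 11.1% of all bins) and in 2 with ntp4-1 higher (0.797%, against 0.734%).

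The smallest p belonged to the bin of miR398b-5p, which overlaps AT5G14545 and AT5G14550. It had 3.42, 0 and 0 RPM in ntp4-1 and 59.7, 29.8 and 11.7 RPM in urt1-1. The groups were separate, and the higher ntp4-1 library was the first. The difference was -4.82 (SE 0.89, limma adjusted p = 0.131). miR166a-3p had 195.2, 293.0 and 225.8 RPM in ntp4-1 and 999.7, 517.8 and 753.7 RPM in urt1-1, a difference of -1.64 (SE 0.44, limma adjusted p = 0.549). miR165a-3p, with the same seed, had 7.11, 14.2 and 11.3 RPM in ntp4-1 and 64.6, 28.7 and 38.4 RPM in urt1-1. Neither had overlap, and both were lower in ntp4-1 without passing the test.

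Both abundant miR319 members had lower means in ntp4-1. miR319c had 869, 210 and 327 RPM in ntp4-1 and 2055, 884 and 1569 RPM in urt1-1, and miR319a 355, 468 and 653 RPM in ntp4-1 and 1341, 2285 and 851 RPM in urt1-1. The groups did not overlap for either, although for miR319c the first ntp4-1 library came close to the lowest urt1-1 library. The limma differences were -1.86 and -1.53 with adjusted p of 0.725 and 0.729. miR8174 (1.84, 1.42 and 2.92 RPM in ntp4-1, 11.5, 9.74 and 7.91 RPM in urt1-1) and miR848 (9.48, 6.69 and 10.8 RPM in ntp4-1, 52.2, 31.4 and 25.8 RPM in urt1-1) followed the same order and did not pass either.

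In the other direction the smallest p was that of miR5653, whose bin lies on a TE. It had 1.71, 1.82 and 4.205 RPM in ntp4-1 and 0 in every urt1-1 library (limma adjusted p = 0.52). The miR865 bin, which names both strands but overlaps each only in part, had 4.08, 5.07 and 6.58 RPM in ntp4-1 and 0.645, 2.43 and 1.43 RPM in urt1-1. These were the 2 with no overlap among the higher miRNA bins. miR395a, a family of sulfate assimilation, overlapped between the groups, with 1.98, 6.89 and 19.6 RPM in ntp4-1 and 0, 9.74 and 0 RPM in urt1-1, as did miR863-3p and miR2112-5p.

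Among the most abundant miRNAs, libraries of one genotype differed widely. miR158a, the highest, had 2673, 12854 and 13326 RPM in ntp4-1 and 12422, 15287 and 11876 RPM in urt1-1. miR159a, which acts on mRNAs of GAMYB-like transcription factors, had 510.3, 2758 and 2875 RPM in ntp4-1 and 3099, 10422 and 1622 RPM in urt1-1. miR396b-5p, which acts on mRNAs of growth-regulating factors, had 20.02, 540.0 and 537 RPM in ntp4-1 and 177, 1547 and 138 RPM in urt1-1, and miR172a, of floral AP2 factors, 0, 123 and 73.5 RPM in ntp4-1 and 8.64, 234 and 3.89 RPM in urt1-1. The last 2 were picked after their values were seen, and in both the low libraries, ntp4-1 replicate 1 and urt1-1 replicates 1 and 3, were those of 1 library set. miR172a is a marker of the labelled floral tissue. miR163 had 139, 450.0 and 446 RPM in ntp4-1 and 852, 1298 and 343 RPM in urt1-1. By contrast miR780 (618, 913 and 1180.4 RPM in ntp4-1, 856, 709 and 934 RPM in urt1-1) and miR162b (882, 1482.5 and 1259 RPM in ntp4-1, 842, 838 and 959 RPM in urt1-1) were not lower on average in ntp4-1, although the difference of miR780 turned to -0.14 without ntp4-1 replicate 3. miR403-3p had 108.0, 1090.0 and 987.9 RPM in ntp4-1 and 292.1, 1008 and 235.1 RPM in urt1-1. Its difference of 0.25 had no stable sign: it ran between -0.33 and 1.34 when a library was left out and was -0.62 with library set as a term. miR162 and miR403 act on mRNAs of the silencing machinery, DCL1 and AGO2. With library set as a term, again a fit chosen after the data were seen, 26 miRNA bins passed (10.4%, against 3.00% of all bins), 1 higher and 25 lower, and 4 with TMM scaling added, 1 higher and 3 lower.

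The title of the series asks about asymmetry between the strands of a duplex, and the ratio of 5p to 3p within a library does not depend on its scale. The table names both strands for 87 MIR genes, but in 41 of them both lie in 1 bin, and 32 of the other 46 had a mean of at least 1 RPM in both bins. limma called 0 of the 32 log2 ratios (0.00%), and 2 had an unadjusted p under 0.05 (6.25%). The median difference was 0.07.

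miR165a came closest. Its log2 ratio of 5p to 3p was 0.76, 0.99 and 1.90 in ntp4-1 and -1.27, -0.92 and -0.44 in urt1-1. The 5p bin was the fuller one in every ntp4-1 library and the 3p bin in every urt1-1 library. The difference was 2.09 (SE 0.51, limma adjusted p = 0.162). It came from the 3p bin given above, for the 5p bin was of like level, with 12.4, 28.6 and 43.7 RPM in ntp4-1 and 26.4, 14.9 and 28.1 RPM in urt1-1. The ratio in Col-0 was -1.69 to -1.41, on the side of urt1-1.

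miR166e, of the same family, had log2 ratios of -2.98, -2.89 and -2.61 in ntp4-1 and -3.91, -4.82 and -3.71 in urt1-1, a difference of 1.32 (SE 0.48, limma adjusted p = 0.468). Its groups did not overlap either, and the 3p strand dominated in every library. miR863 went the other way, at 3.87, 2.19 and 2.60 in ntp4-1 and 4.66, 3.77 and 4.37 in urt1-1, with overlap. miR159b had -8.47, -7.41 and -7.53 in ntp4-1 and -9.59, -9.86 and -8.05 in urt1-1, and miR171b 0.23, -0.61 and -1.50 in ntp4-1 and -1.38, -2.77 and -1.08 in urt1-1, both with overlap. With library set as a term 4 of the 32 ratios passed (12.5%), each at a limma adjusted p of 0.0411, and that fit was chosen after the data were seen. In it miR165a (1.99) and miR171b (1.59) were higher in ntp4-1, and miR396b (-1.47) and miR173 (-1.80) lower. Reads of near-identical miRNAs, such as the miR165 and miR166 members, cannot be assigned to a MIR gene with certainty.

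**Figure D4:**
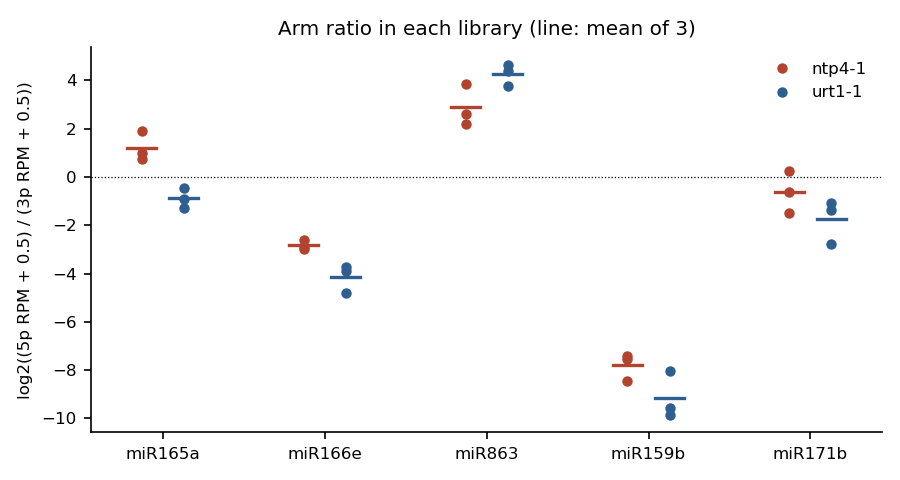
log2 ratio of the 5p bin to the 3p bin, each with 0.5 RPM added, for the 5 MIR genes of smallest p; points are libraries and lines means of 3, ntp4-1 left of urt1-1. The miR165a points lie above 0 in all ntp4-1 libraries and under 0 in all urt1-1 libraries, while those of miR863, miR159b and miR171b overlap.

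Feature classes on chromosomes 1 to 5 had like medians. The median difference lay between -0.46 and -0.35 in genes with or without a TE, promoters, promoters with a TE, TEs and bins with no annotation, near the -0.38 of all nuclear bins. Nuclear bins of a gene and a promoter together were nearer to 0 (-0.27, and -0.06 after TMM scaling), and so were miRNA bins. The sums of nuclear RPM overlapped between the mutants in every class. Nuclear gene bins summed to 44950 ± 14677 RPM in ntp4-1 and 56958 ± 10223 RPM in urt1-1, TE bins to 36629 ± 16045 RPM in ntp4-1 and 49579 ± 13010 RPM in urt1-1, and miRNA bins to 24641 ± 12950 RPM in ntp4-1 and 36958 ± 13749 RPM in urt1-1 (SD, n = 3 each). The two-sided exact permutation p was 0.4, 0.5 and 0.5. As a share of the nuclear RPM, the groups did not overlap in 2 of the 9 classes, each with an exact permutation p of 0.1, the smallest that 3 against 3 can give. Bins of a gene and a promoter held 10.06%, 7.87% and 7.73% in ntp4-1 and 6.41%, 5.82% and 7.34% in urt1-1. The fullest bin of the rRNA genes, in AT2G01020, is of this class. Over listed bins of any class, rRNA genes summed to 21390, 28716 and 28243 RPM in ntp4-1 and 18590, 21435 and 22284 RPM in urt1-1, with overlap. The part of rRNA genes in the share of this class was not tested. Promoters with a TE held 4.83%, 5.22% and 5.58% in ntp4-1 and 5.92%, 5.81% and 5.69% in urt1-1. The restriction to chromosomes 1 to 5 was chosen after the data were seen.

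In the organelle genomes the median bin was higher in ntp4-1. Tested bins of the mitochondrial genome summed to 6281, 8198 and 8177 RPM in ntp4-1 and 5161, 4722 and 5218 RPM in urt1-1. All ntp4-1 libraries lay above all urt1-1 libraries, with an exact permutation p of 0.1. Those of the chloroplast genome summed to 38638, 64616 and 65027 RPM in ntp4-1 and 38977, 32959 and 49467 RPM in urt1-1, with overlap (exact permutation p = 0.3). As a share of the RPM of all listed bins, the chloroplast held 13.5%, 13.3% and 12.0% in ntp4-1 and 7.62%, 5.43% and 11.3% in urt1-1, and these did not overlap (exact permutation p = 0.1). On that same scale, with organelle bins left in the classes, groups did not overlap (exact permutation p = 0.1) in genes with a promoter, promoters and the mitochondrial genome, with ntp4-1 higher, and in genes with a TE, promoters with a TE and genes with a promoter and a TE, with ntp4-1 lower. The median difference was 0.60 over 660 chloroplast bins and 0.45 over 213 mitochondrial bins, and 0.82 and 0.71 after TMM scaling. None of these bins was called by limma. At an unadjusted p under 0.05 there were 12 of 660 chloroplast bins (10 higher and 2 lower) and 4 of 213 mitochondrial bins (1 higher and 3 lower). Taken over both directions, both shares lie under the 3.94% of all bins (0.379% higher and 3.57% lower), but the chloroplast bins were mostly higher. No overlap with ntp4-1 higher was found in 7.42% of chloroplast and 7.04% of mitochondrial bins, against 0.734% of all bins. With ntp4-1 lower it was found in 0.758% and 2.82%, against 11.1% of all bins. The bins of 1 genome are not replicates.

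**Figure D5:**
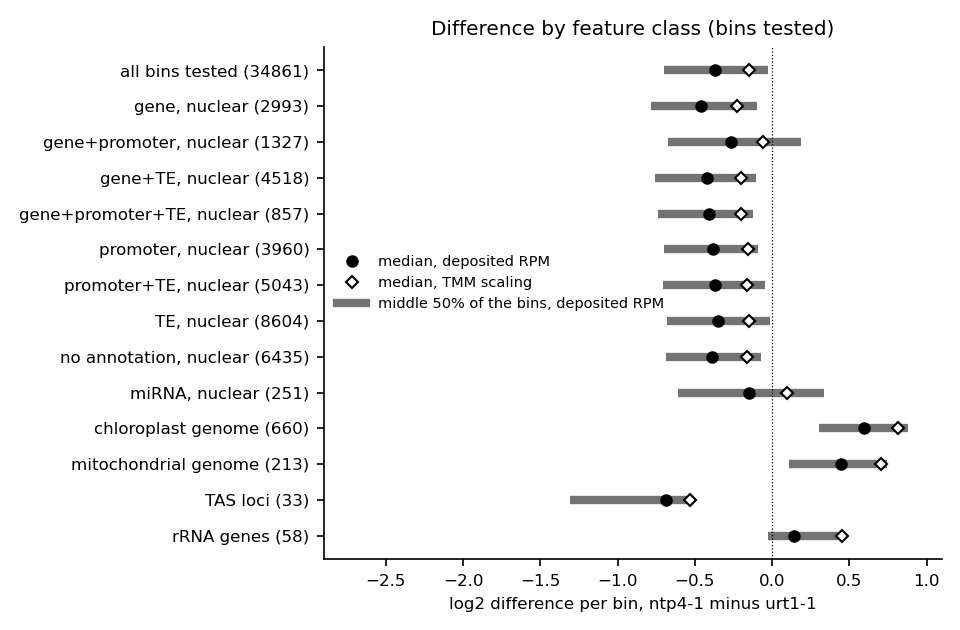
Log2 difference per bin, ntp4-1 minus urt1-1, by feature class on chromosomes 1 to 5, organelle genome and list, with the number of bins tested; the circle is the median and the bar the middle 50% on the deposited scale, the diamond the median after TMM scaling. On the deposited scale the medians of the nuclear classes sit left of 0 and those of chloroplast and mitochondrial bins right of it, and of the rows shown the TAS loci are farthest left; after TMM scaling the miRNA median is right of 0.

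The lists of small RNA pathways held no called bin. Trans-acting siRNA (TAS) loci are noncoding genes whose transcripts are cut under the guidance of a miRNA and turned into phased siRNA. Of 33 tested TAS bins, 6 had an unadjusted p under 0.05, all lower in ntp4-1, against 3.57% of all bins. No overlap in that direction was found in 9 (27.3%, against 11.1% of all bins). The bins of a locus are not replicates, so these counts are a description. The median difference of the TAS bins was -0.68 on the deposited scale and -0.53 after TMM scaling. Summed over the listed bins the loci had 1717, 4264 and 4937 RPM in ntp4-1 and 7613, 8023 and 5142 RPM in urt1-1, without overlap. The fullest bin, in TAS1C (AT2G39675), had 639, 597 and 839 RPM in ntp4-1 and 2663, 1284 and 1955 RPM in urt1-1 (limma difference -1.46, SE 0.39, adjusted p = 0.549). The fullest TAS2 bin (AT2G39681) overlapped between the groups, with 355, 836 and 1028 RPM in ntp4-1 and 1143, 1286 and 823 RPM in urt1-1. miR173-5p, which triggers siRNA formation at TAS1 and TAS2, had 1.45, 176 and 156 RPM in ntp4-1 and 16.4, 312 and 6.74 RPM in urt1-1, also with overlap.

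Conserved miRNA families had 103 of 122 listed bins tested, with a median difference of -0.16. Of these, 6 had an unadjusted p under 0.05, all lower, against 3.57% of all bins. Families on the silencing machinery (7 bins) and triggers of phased siRNA (6 bins) had none at that level. Of the genes for AGO1, AGO4, DCL1, HEN1, HESO1 and URT1 a single bin was tested, in AGO1, the main miRNA effector, at 0.658, 0.203 and 0.548 RPM in ntp4-1 and 2.45, 0.541 and 2.20 RPM in urt1-1. Small RNA does not report the mRNA of a mutated gene, so it does not check the genotype labels. rRNA genes, whose fragments are mostly products of turnover, had a median of 0.14 over 58 bins and of 0.45 after TMM scaling. With library set as a term, a fit chosen after the data were seen, the median was -0.13, so its sign was not stable. Of the 58 bins, 3 had an unadjusted p under 0.05, all higher, against 0.379% of all bins. The fullest, in AT2G01020, had 3609, 3730.1 and 4580.4 RPM in ntp4-1 and 2456, 2659 and 2447 RPM in urt1-1, without overlap and without passing the test.

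As markers of the labelled tissue, families of floral organs (miR159, miR167, miR172 and miR319) summed to between 2275 and 8982 RPM in ntp4-1 and between 5454 and 23963 RPM in urt1-1 over 21 listed bins. The pollen miRNAs miR845 and miR2939 summed to 853, 289 and 629 RPM in ntp4-1 and 2072, 347 and 1996 RPM in urt1-1. They were highest in urt1-1 replicates 1 and 3 and, within ntp4-1, in replicate 1, which are the libraries of 1 set. The part of tissue makeup in the other results was not tested.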

How the data were processed

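The authors deposited a table of RPM per 100-bp bin, with 12 columns that were matched by name to the labelled samples (0 columns had none). The sources used here give no aligner, build or rule for reads that match several sites. In all 12 libraries 100% of the deposited RPM were whole multiples of 1 unit within 0.001 unit. In 11 libraries this unit was taken as 1 read, which gave the totals. The unit of Col-0 replicate 3, 0.100502 RPM, lay near a power of 10 and was not taken as 1 read. Bins with a mean of at least 1 RPM over the 6 libraries were fitted with limma 3.58.1 (R 4.3.3, trend, log2(RPM + 0.5), two-sided, Benjamini-Hochberg over all bins), and arm ratios without trend. As alternatives the recovered reads went through edgeR (4.0.16, quasi-likelihood) and DESeq2 (1.42.0). The script was tested on simulated data. Bin positions were compared with TAIR10.1: 99.48% of gene listings overlapped the gene of that name, 9120 of 9247 gene identifiers were found, and all 422 mature miRNA listings overlapped. Bins have no strand, so overlapping genes cannot be told apart. Named were the 10 largest rises and falls among called bins, the 5 smallest p per class with under 5 calls, for miRNAs the 5 smallest p in each direction and the 10 highest means, for arm ratios the 5 smallest p, and per list the 2 highest means; others are said to be picked later, and bins of this rule that are not described singly are covered by ranges, gene names or the plot. Feature classes follow the table's annotation, so that class counts include organelle bins unless said to be nuclear. The members and lists were chosen with earlier results of these data known. SD covers the spread between 3 libraries, and without molecular identifiers a read need not be a separate molecule.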

Additional observations from a re-analysis of the deposited data

How the results depend on the processing

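The 25 called bins, 3 gene bins, 0 miRNA bins and 0 arm ratios depend strongly on the processing. A pseudocount of 0.1 gave 0 bins and 0 gene bins, a pseudocount of 1 gave 14 and 1, a mean of at least 5 RPM gave 0 and 0, and no filter gave 100 bins, 26 gene bins and 1 miRNA bin. All 12 libraries in 1 fit gave 68 and 12, TMM factors 50 and 7, an equal sum over the listed bins 35 and 5, edgeR 0 and 0, and DESeq2 204, 61 and 1 miRNA bin. Leaving out a library gave 0 to 73 bins, 0 to 21 gene bins and 0 to 1 miRNA bins, with the highest count of each without ntp4-1 replicate 1. The cause of these changes was not tested. Same-numbered libraries deviated from their group means with r of 0.41, 0.52 and -0.36, so whether replicate numbers pair the libraries is not settled. With the replicate block there were 186 bins, 55 gene bins, 2 miRNA bins and 0 arm ratios. Of fits chosen after the data were seen, library set as a term gave 1047 bins, 260 gene bins, 26 miRNA bins and 4 arm ratios, the same with TMM factors 211, 76 and 4, and all 12 libraries with the set as a term 2335, 445, 26 and 1, while within library set A there were 0 and 0 and within set B 1 and 1.

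Some directions of uncalled values turned round. The log2 ratio of class sums was 0.0112 for bins with no annotation and 0.19 for promoters as a share of the listed RPM, and 0.0974 for bins with no annotation as a share of the nuclear RPM, a scale chosen after the data were seen, while for promoters it ran between -0.20 and 0.17 when a library was left out. For the 2 miRNA bins that were picked after their values were seen, the difference when a library was left out ran between -1.68 and 0.68 for miR396b-5p and between -1.80 and 2.18 for miR172a, which was also 0.0882 with edgeR and 0.0897 with DESeq2. Depth limits low bins: 1 read was worth 0.129 to 0.271 RPM in these libraries.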
